A study of Mus musculus with 12 samples.

Results

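The change of gene expression between embryonic day 12.5 (E12.5) and postnatal day 5 (P5) was compared between Chd8+/- and Chd8+/+ mouse neocortices, using all 12 of the 12 RNA-seq libraries of the series with the 2 sequencing runs of each library summed. For every gene, the genotype difference at P5 (Chd8+/- minus Chd8+/+) less the genotype difference at E12.5 was taken on the log2 scale, and it is called the difference of differences here. A negative value means that the level in Chd8+/- relative to Chd8+/+ was lower at P5 than at E12.5, and a positive value the reverse. Each genotype had 3 libraries at each stage, made from C57Bl/6J cortex, of which both hemispheres were taken at E12.5 and 1 hemisphere at P5. Chd8+/- mice carry 1 allele from which a β-actinCre line, active in all tissues, had deleted exon 3, and Chd8+/+ mice carry no mutant allele. The labels do not say whether the libraries of a group came from separate litters. Each stage was counted in a table of its own, so the change from E12.5 to P5 and a difference between the tables cannot be told apart. The difference of differences compares the genotypes within each table first.

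CHD8 is an ATP-dependent chromatin remodeler that binds near the promoters of many active genes, and loss of 1 copy of the human gene is a known cause of autism spectrum disorder. At E12.5 the neocortical wall consists mostly of dividing progenitors and the first deep-layer neurons. At P5 neurogenesis has ended, neurons of all layers are in place, axons and synapses are forming, and astrocytes and oligodendrocyte precursors multiply. The comparison asks whether the loss of 1 Chd8 allele acts differently on the transcriptome at these 2 stages.

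The count total per library ranged from 38774591 to 54695236, and 19676 genes passed the filter on low counts. The chi-square per degree of freedom was 1.18 to 1.51 for the 2 runs of 1 library and 6.72 to 16.9 for 2 libraries of 1 group, except in the pairs of Chd8+/- replicate 3 of P5 with the other libraries of its group, where it was 40.45 and 46.0. Without that library 1940 genes had an unadjusted p under 0.05 for the difference of differences, 68.2% of them negative, against 1972 and 68.6% with it, and DESeq2 called 18 genes, including all 8 it called with it. Genes of other tissue stood apart in Chd8+/- replicate 2 at E12.5. Nkx2-2, a ventral patterning factor that dorsal cortex lacks at this age, was at 6.62 CPM (counts scaled to the library total after TMM normalization) in that library and between 0.103 and 0.463 CPM in the other E12.5 libraries. Tbr1, a marker of early cortical neurons, was at 180 CPM in it and between 208 and 240 CPM in the others. Counts of negative list members that moved by at least 1.5 times without this library are given below for the lists described.

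No gene had a difference of differences with an adjusted p under 0.05 in edgeR's quasi-likelihood test, and the smallest adjusted p was 0.362. An unadjusted p under 0.05 was found for 1972 genes (10% of those tested), where 984 would be expected if no gene differed. The value was negative for 1352 of them (6.87% of all genes tested) and positive for 620 (3.15%). This split of 68.6% negative changed with the scaling and with single libraries. It was 68.8% with DESeq2 size factors, 53.8% with scaling to the total count and 53.2% with upper quartile scaling. With offsets that remove each library's trend with gene length, and any genotype difference that follows length, it was 44.2%. Leaving out 1 library gave 50.7% (Chd8+/+ replicate 1) to 60.7% for the E12.5 libraries and 62.5% to 68.2% for the P5 libraries. DESeq2's Wald test called 8 genes out of 8616 left by its own filter (0.0929%), of which 7 are described here, namely Ebf1, Sema3c, Tenm2, Otx2, Pde10a, Dock11 and Rfng. Of the 8, Rfng was the 1 gene with a positive value. In edgeR each of the 8 had an adjusted p of 0.362.

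The stage change itself was large and closely matched between the genotypes. edgeR called 17295 genes (87.9% of those tested), 8594 higher and 8701 lower at P5. The change from E12.5 to P5, fitted separately in Chd8+/+ and in Chd8+/-, which share no library, had a Pearson r of 0.974 and a Spearman rho of 0.977 across genes. Genes are not independent replicates, and these values describe the 12 libraries only. The sign of the change was the same in both genotypes for 18665 genes (94.9%). The median size of the stage change was 0.92 on the log2 scale, against a median size of 0.13 for the difference of differences, whose median standard error was 0.13.

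**Figure D1:**
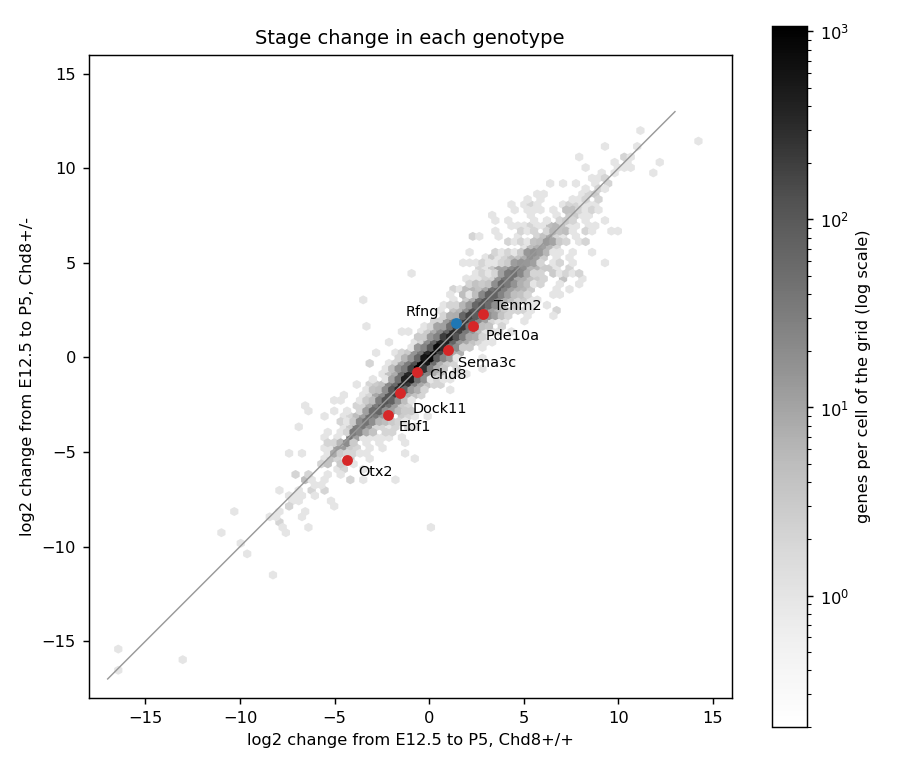
Change from E12.5 to P5 on the log2 scale in Chd8+/+ (x axis) and Chd8+/- (y axis) for the 19676 genes tested, with shading for the number of genes in each cell of the grid and a line of equal change. Chd8 and 6 genes called by DESeq2 with a negative difference of differences are red and lie below the line, and Rfng is blue and lies above it.

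The lists for dividing cells, synapses and astrocytes had nearly equal median changes between the stages in both genotypes. In bulk tissue, fewer cells of a type and less RNA per cell cannot be told apart. All 40 genes tested for mitosis and the cell cycle fell from E12.5 to P5, with a median log2 change of -4.06 in Chd8+/+ and -4.11 in Chd8+/-. The 30 DNA replication genes also fell, by a median of -3.34 and -3.35. Bub1, a kinase of the mitotic spindle checkpoint, was at 142, 143 and 148 CPM in the Chd8+/+ libraries of E12.5 and at 142, 141 and 154 CPM in the Chd8+/- libraries. At P5 it was at 5.38, 4.87 and 4.48 CPM in Chd8+/+ and at 4.60, 5.28 and 5.13 CPM in Chd8+/-. The genotypes overlapped at both stages, and the difference of differences of Bub1 was 0.01 (standard error 0.10, 95% interval -0.19 to 0.22). Hmga2, an architectural chromatin protein of early progenitors, fell by 9.92 on the log2 scale in Chd8+/+ and by 9.90 in Chd8+/-, and Ezh2, the catalytic subunit of Polycomb repressive complex 2, fell by 3.54 and 3.61.

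Of the 38 genes of synaptic vesicles and active zones that were tested, 35 rose, with a median change of 2.95 in Chd8+/+ and 2.93 in Chd8+/-. Of 43 genes for glutamate receptors and postsynaptic scaffolds, 41 rose, with medians of 2.70 and 2.74. Slc17a7, which loads glutamate into synaptic vesicles, rose by 4.63 in Chd8+/+ and by 4.80 in Chd8+/- (difference of differences 0.17, standard error 0.22). Mef2c, an activity-regulated transcription factor of upper-layer neurons, rose by 4.93 and 5.07, and Olig1, of the oligodendrocyte lineage, by 5.39 and 5.33. The medians of 17 astrocyte genes were 3.06 and 2.99. Medians lay furthest apart for the lists of erythrocytes (-5.15 in Chd8+/+ and -6.12 in Chd8+/-), cadherins (1.17 and 0.46), the choroid plexus (1.32 and 0.64) and the oligodendrocyte lineage (3.03 and 2.47). A gap between list medians is not the typical value of a gene. The median difference of differences was -0.29, -0.24, -0.84 and -0.06 in the same order. For the oligodendrocyte lineage it was 0.03 without Chd8+/- replicate 2 of E12.5.

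Chd8 was lower in every Chd8+/- library than in every Chd8+/+ library of the same stage. At E12.5 it was at 234, 229 and 236 CPM in Chd8+/+ and at 162, 167 and 161 CPM in Chd8+/-. By P5 it was at 151, 151 and 145 CPM in Chd8+/+ and at 95.7, 98.64 and 95.01 CPM in Chd8+/-. The genotype difference was -0.51 at E12.5 (standard error 0.0338, edgeR adjusted p = 1.32e-05) and -0.63 at P5 (standard error 0.0342, edgeR adjusted p = 9.78e-07). The difference of differences was -0.12 (standard error 0.0480, 95% interval -0.22 to -0.02), and it did not pass the adjustment (adjusted p of 0.452 in edgeR and 0.361 in DESeq2). With offsets that remove each library's trend with gene length it was -0.02 (edgeR adjusted p = 0.945). Chd8 itself fell from E12.5 to P5 by 0.64 in Chd8+/+ and by 0.76 in Chd8+/-. The gene (ENSMUSG00000053754, chromosome 14 of GRCm38, 52198151 to 52257723, minus strand) overlaps 2 other annotated genes, and counting was not set to use strand at P5.

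The number of genes called at a single stage depended on the test. edgeR called Chd8 and Sfxn1 at E12.5 (2 genes, 0.0102% of those tested) and Folr1, Chd8, Zfp608 and Dnajc4 at P5 (4 genes, 0.0203%). DESeq2 called 24 genes at E12.5 and 334 at P5, and limma-voom with sample weights called 5 and 731. Without Chd8+/- replicate 2 of P5, edgeR called 161 genes at P5. Across genes, the genotype differences at the 2 stages, which share no library, had a Pearson r of 0.0036 and a Spearman rho of 0.0321.

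Ebf1, a transcription factor of striatal projection neurons and of lymphocytes, had the smallest adjusted p in DESeq2. At E12.5 it was at 43.3, 47.1 and 38.97 CPM in Chd8+/+ and at 47.9, 44.9 and 47.6 CPM in Chd8+/-. The P5 levels were 9.44, 9.76 and 9.47 CPM in Chd8+/+ and 4.31, 6.90 and 5.66 CPM in Chd8+/-. The genotypes overlapped at E12.5 and were apart at P5. The gene fell by 2.17 on the log2 scale in Chd8+/+ and by 3.05 in Chd8+/-, a difference of differences of -0.88 (standard error 0.161, 95% interval -1.23 to -0.54, DESeq2 adjusted p = 2.54e-04). Ebf1 lies on chromosome 11 from 44617317 to 45008091 and overlaps 2 other genes. DESeq2 called it with 11 of the 12 libraries left out in turn, and without Chd8+/+ replicate 3 of E12.5 it gave a value of -0.83 and no adjusted p.

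Pde10a, a cyclic nucleotide phosphodiesterase enriched in striatal neurons, had the same order of groups while rising with age. It was at 34.7, 39.98 and 35.04 CPM in Chd8+/+ and at 42.1, 38.6 and 37.1 CPM in Chd8+/- at E12.5. At P5 the values were 170, 189 and 181 CPM in Chd8+/+ and 105, 143 and 128 CPM in Chd8+/-, without overlap. The rise was 2.30 in Chd8+/+ and 1.68 in Chd8+/- (difference of differences -0.62, standard error 0.132, DESeq2 adjusted p = 0.0150).

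Otx2, a homeobox factor of the choroid plexus and of ventral and caudal forebrain, was at 52.0, 46.9 and 46.9 CPM in Chd8+/+ and at 46.9, 73.2 and 47.5 CPM in Chd8+/- at E12.5. The high value is that of Chd8+/- replicate 2, the library with Nkx2-2. At P5 Otx2 was at 2.40, 2.48 and 2.32 CPM in Chd8+/+ and at 1.03, 1.55 and 1.34 CPM in Chd8+/-, and all Chd8+/- libraries were lower. Its difference of differences was -1.08 (standard error 0.274, 95% interval -1.66 to -0.49, DESeq2 adjusted p = 0.0072), and without that library DESeq2 gave -0.85 (adjusted p = 0.00135).

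Sema3c and Rfng were apart between the genotypes at both stages, in opposite directions at E12.5 and P5. Sema3c encodes a secreted semaphorin, a guidance cue for axons and migrating neurons. At E12.5 it was at 20.1, 23.5 and 20.3 CPM in Chd8+/+ and at 26.3, 28.2 and 26.2 CPM in Chd8+/-. At P5 it was at 40.9, 44.7 and 39.9 CPM in Chd8+/+ and at 32.1, 38.0 and 34.6 CPM in Chd8+/-. Every Chd8+/- library was thus above the Chd8+/+ libraries at E12.5 and below them at P5. The gene rose by 0.98 in Chd8+/+ and by 0.38 in Chd8+/- (difference of differences -0.60, standard error 0.109, 95% interval -0.83 to -0.36, DESeq2 adjusted p = 0.0027).

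Rfng encodes a glycosyltransferase of the Fringe family, which modifies Notch receptors. It was at 43.8, 39.6 and 43.1 CPM in Chd8+/+ and at 37.8, 36.7 and 35.97 CPM in Chd8+/- at E12.5. By P5 it was at 108, 112 and 118 CPM in Chd8+/+ and at 137, 124 and 123 CPM in Chd8+/-. The Chd8+/- libraries were lower at E12.5 and higher at P5. The rise was 1.42 in Chd8+/+ and 1.80 in Chd8+/-, and the difference of differences was 0.38 (standard error 0.0741, 95% interval 0.22 to 0.54, DESeq2 adjusted p = 0.0265). Among all genes tested, 131 (0.666%) were higher in all Chd8+/- libraries at E12.5 and lower in all of them at P5, and 58 (0.295%) were lower at E12.5 and higher at P5.

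The promoters of these 2 genes are printed as 1 of each sign, from the called genes that have a single start in the reference table. The windows run from 250 bases before to 50 bases after the start, from RefSeq on GRCm38.p6, 5′ to 3′ on the strand of the gene, chr5:17574566-17574865 (plus strand) for Sema3c and chr11:120784155-120784454 (minus strand) for Rfng. Capitals mark the GC box, GGGCGG or its reverse complement CCGCCC, and overlapping or touching matches run together.
Sema3c: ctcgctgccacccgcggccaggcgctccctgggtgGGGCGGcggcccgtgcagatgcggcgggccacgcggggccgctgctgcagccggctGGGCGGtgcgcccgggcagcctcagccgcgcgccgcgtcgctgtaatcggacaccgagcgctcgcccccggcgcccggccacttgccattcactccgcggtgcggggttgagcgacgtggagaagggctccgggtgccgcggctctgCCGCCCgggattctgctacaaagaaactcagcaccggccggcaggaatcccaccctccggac
Rfng: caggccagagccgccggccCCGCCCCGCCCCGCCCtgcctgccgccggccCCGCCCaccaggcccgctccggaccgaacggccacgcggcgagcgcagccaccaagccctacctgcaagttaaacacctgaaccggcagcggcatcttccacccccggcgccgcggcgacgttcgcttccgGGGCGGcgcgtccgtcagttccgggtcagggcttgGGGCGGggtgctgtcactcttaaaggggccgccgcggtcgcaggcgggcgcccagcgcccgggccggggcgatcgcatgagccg
The window of Sema3c holds 3 matches and 42 CpG dinucleotides, and that of Rfng 6 matches and 44 CpG dinucleotides. Of the 32851 promoter windows in the table, 35.7% hold a match, and the median number of CpG dinucleotides is 7. Of the other called genes with a single start, Dock11 has 3 matches and 25 CpG dinucleotides, and Tenm2 has 0 and 2. The windows of Sema3c and Tenm2 lie inside the genes as counted, and Sema3c as counted begins upstream of its window, at 17574281.

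Tenm2, a teneurin that spans the synaptic cleft, was at 28.3, 27.7 and 32.7 CPM in Chd8+/+ and at 35.7, 36.7 and 32.3 CPM in Chd8+/- at E12.5, where the genotypes overlapped by 1 library. The P5 levels were 221, 213 and 209 CPM in Chd8+/+ and 166, 192 and 160 CPM in Chd8+/-, without overlap. The difference of differences was -0.55 (standard error 0.105, DESeq2 adjusted p = 0.00524). Dock11, an activator of the GTPase CDC42, lies on the X chromosome and fell with age. It was at 80.7 to 84.7 CPM in Chd8+/+ and at 86.1 to 87.4 CPM in Chd8+/- of E12.5, and at 28.1 to 29.4 CPM and 22.4 to 24.7 CPM in the same order at P5. Its genotypes were apart at both stages, and the difference of differences was -0.33 (standard error 0.0665, DESeq2 adjusted p = 0.0437). Each group held 1 library with high counts of the X-inactivation transcript Xist, and with a term for it DESeq2 called 9 genes, including 6 of the 8, with Dock11 and Rfng not among them. With that term their DESeq2 values were -0.34 and 0.38, as without it.

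**Figure D2:**
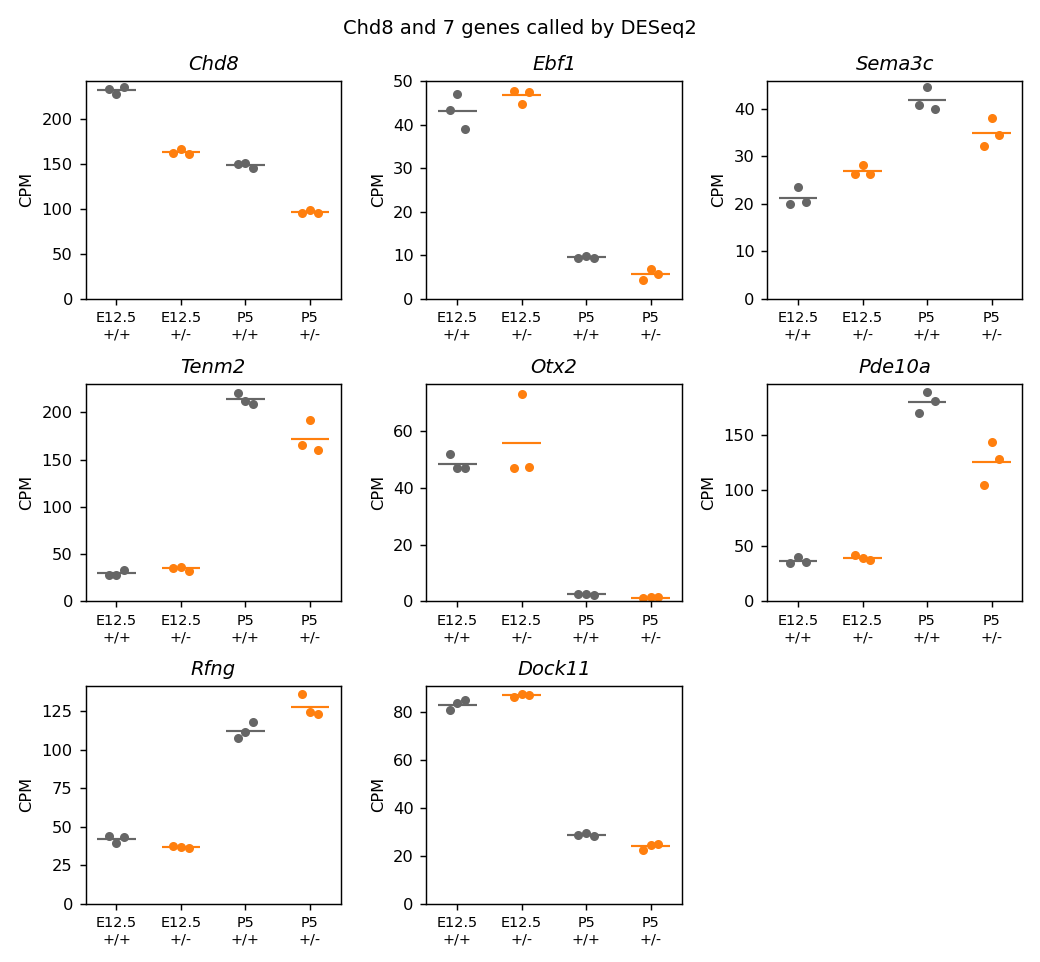
CPM (scaled counts) of Chd8 and 7 genes called by DESeq2 in each of the 3 libraries (points) of the 4 groups, with the group mean as a line, on axes that start at 0. In the 6 called genes with a negative difference of differences the Chd8+/- libraries lie below the Chd8+/+ libraries at P5, and in Rfng above them.

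Whether the 8 genes passed the threshold depended on single libraries. With each of the 12 libraries left out in turn, DESeq2 kept all 8 in 5 cases. It kept 1 of them without Chd8+/+ replicate 1 of E12.5, without Chd8+/- replicate 1 of P5 or without Chd8+/+ replicate 2 of P5, and 2 without Chd8+/+ replicate 1 of P5. The number of calls ran from 2 without Chd8+/+ replicate 2 of P5 to 116 without Chd8+/+ replicate 3 of E12.5. The DESeq2 values moved less than the calls, from -0.69 to -0.54 for Sema3c, -0.65 to -0.50 for Tenm2, -0.73 to -0.52 for Pde10a and 0.32 to 0.41 for Rfng over the 12 fits. With normalization factors for gene length, DESeq2 called 4 genes, including Ebf1 and Otx2 of the 8. In that fit Sema3c was at -0.54, Tenm2 at -0.47, Pde10a at -0.54, Dock11 at -0.26 and Rfng at 0.39.

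The genes called for the stage change were divided by the direction of that change and the sign of the difference of differences. Of the 4506 genes that rose with age and had a negative value, 561 had an unadjusted p under 0.05, and of the 4088 that rose with a positive value 336 did. Of the 5076 genes that fell with a negative value 709 had an unadjusted p under 0.05, and of the 3625 that fell with a positive value 204 did. Stage change and difference of differences share their libraries, and the counts are given side by side only. Among the genes called for the stage change, 47.0% changed less in Chd8+/- than in Chd8+/+, close to an even split.

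Folr1, the folate receptor alpha of choroid plexus and early neural epithelium, had the smallest p among genes that rose with age and had a negative difference of differences. At E12.5 it was at 2.25, 2.00 and 1.53 CPM in Chd8+/+ and at 2.43, 2.13 and 2.22 CPM in Chd8+/-. At P5 the values were 4.30, 5.70 and 3.69 CPM in Chd8+/+ and 2.01, 1.67 and 1.40 CPM in Chd8+/-, so that it was higher than at E12.5 in Chd8+/+ libraries only. The difference of differences was -1.65 (standard error 0.273, 95% interval -2.24 to -1.07, edgeR adjusted p = 0.362), and DESeq2 with all libraries left the gene out by its filter on low counts. DESeq2 called Folr1 with 6 of the 12 libraries left out in turn, with normalization factors for gene length and with a term for Xist, and edgeR with no filter on low counts gave it an adjusted p of 0.000759, against 0.142 to 0.674 under the other alternatives in edgeR and limma-voom.

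Rfng, Pnma2, Rimbp2 and Esrra had the smallest p among genes that rose with age and had a positive value. Pnma2, a neuronal gene derived from a retrotransposon, was at 16.4, 16.5 and 16.6 CPM in Chd8+/+ and at 13.1, 13.7 and 13.3 CPM in Chd8+/- at E12.5. At P5 the genotypes overlapped, at 87.9 to 93.2 CPM and 89.1 to 91.4 CPM (difference of differences 0.30, standard error 0.0621, edgeR adjusted p = 0.362). Rimbp2, which links presynaptic calcium channels to the release machinery, was at 7.28 to 8.09 CPM in Chd8+/+ and at 5.77 to 6.15 CPM in Chd8+/- at E12.5, and overlapped near 110 CPM at P5 (0.31, standard error 0.0722). Esrra, a nuclear receptor that regulates mitochondrial genes, was at 18.5 to 18.6 CPM and 16.4 to 17.2 CPM at E12.5, and at 24.0 to 24.7 CPM and 26.3 to 27.6 CPM at P5 (0.28, standard error 0.0672). The Chd8+/- libraries of Esrra were below the Chd8+/+ libraries at E12.5 and above them at P5.

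Ebf1, Casp8ap2, Dock11 and Zfp608 had the smallest p among genes that fell with age and had a negative value. Casp8ap2, needed for histone gene expression in S phase, was at 104 to 111 CPM in Chd8+/+ and at 112 to 117 CPM in Chd8+/- of E12.5, and at 22.2 to 22.8 CPM and 17.95 to 19.65 CPM at P5 (-0.33, standard error 0.0636, edgeR adjusted p = 0.362). Zfp608, a zinc finger protein, overlapped between the genotypes at E12.5 and was at 46.9 to 49.5 CPM in Chd8+/+ and at 36.3 to 40.8 CPM in Chd8+/- at P5 (-0.32, standard error 0.0652). Of the genes that fell with a positive value, those with the smallest p were Plvap, an endothelial diaphragm protein, Shkbp1, Hirip3 and Kdelc1. Plvap was at 16.8 to 19.3 CPM in Chd8+/+ and at 13.9 to 15.2 CPM in Chd8+/- of E12.5, and at 6.95 to 7.41 CPM and 8.52 to 8.64 CPM at P5, with no overlap at either stage. Its difference of differences was 0.52 (standard error 0.0992, edgeR adjusted p = 0.362), and those of Shkbp1, Hirip3 and Kdelc1 were 0.39, 0.35 and 0.29.

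Over gene lists, the counts below are genes with an unadjusted p under 0.05, and they are to be read against 6.87% negative and 3.15% positive among all genes tested, whose median difference of differences was -0.02. The negative share rose with gene length, from 2.29% in the shortest decile of genes to 16.3% in the longest, and the lists were not matched for length. None of their members passed the adjustment in edgeR. The most negative medians were those of the lists for the choroid plexus, for striatal neurons and for GABA-A receptors, followed by erythrocytes. The erythrocyte median of -0.294 was -0.165 without Chd8+/+ replicate 1 of P5. Over members with more than 30 counts in every group, the GABA-A median was -0.26, less negative than those of erythrocytes (-0.29, 6 genes) and of mitochondrially encoded proteins (-0.264). The medians of genotype difference at each stage are plotted for all 31 lists.

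**Figure D3:**
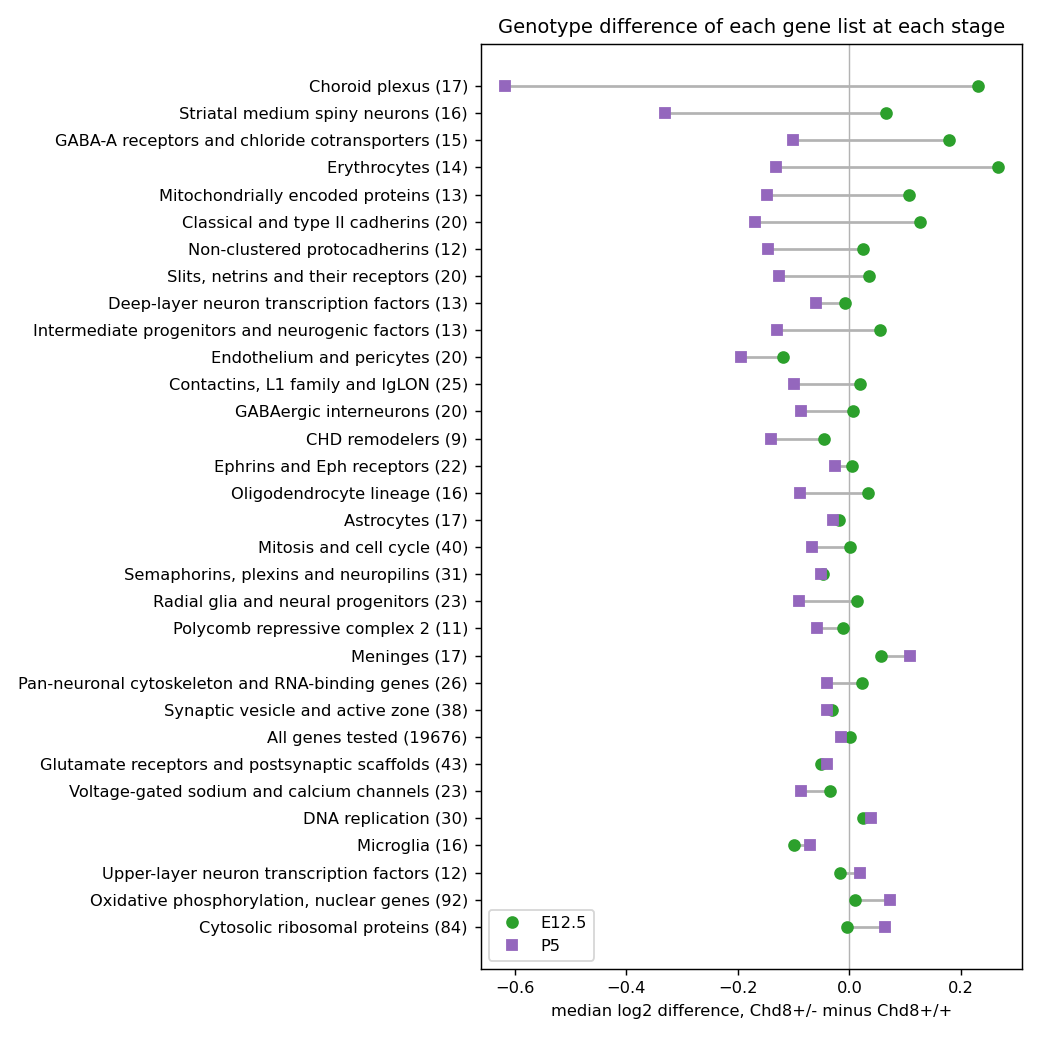
Median log2 difference between Chd8+/- and Chd8+/+ at E12.5 (circles) and at P5 (squares) over the genes of each of 31 lists and over all genes tested, with the number of genes in parentheses and the lists ordered by the median difference of differences. The choroid plexus list runs from 0.23 at E12.5 to -0.62 at P5, and all genes tested lie near 0 at both stages.

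All 17 choroid plexus genes tested had a negative difference of differences, 10 with an unadjusted p under 0.05, and their median was -0.84. The choroid plexus is the secretory epithelium that makes cerebrospinal fluid and lies beside the neocortex without being part of it. Ttr, which encodes the thyroid hormone carrier that defines this epithelium, was at 69.1, 64.1 and 28.4 CPM in Chd8+/+ and at 66.1, 64.4 and 76.3 CPM in Chd8+/- at E12.5. At P5 it was at 414, 539 and 439 CPM in Chd8+/+ and at 330, 362 and 306 CPM in Chd8+/- (-0.84, standard error 0.319, edgeR adjusted p = 0.443). Clic6, a chloride channel protein, was at 10.9 to 20.6 CPM in Chd8+/+ and 16.2 to 21.7 CPM in Chd8+/- at E12.5, and at 7.93 to 10.3 CPM and 4.67 to 5.96 CPM at P5 (-1.12, standard error 0.272).

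The summed level of the choroid plexus list was 131 to 200 CPM in Chd8+/+ and 182 to 235 CPM in Chd8+/- at E12.5, and 554 to 690 CPM and 415 to 472 CPM at P5. At P5, 13 of the 17 genes were lower in every Chd8+/- library than in every Chd8+/+ library, as were 14.4% of all genes tested (8.42% were higher in every one). At E12.5 the genotypes were apart with Chd8+/- lower for 5.59% of all genes and higher for 5.54%. Without Chd8+/- replicate 2 of E12.5, 9 genes had an unadjusted p under 0.05 and the median was -0.69. Over the 15 genes with more than 30 counts in every group the median was -0.62. Otx2 and Folr1, described above by their own values, are members of the list, and how far a share of this epithelium in the dissected tissue enters their values was not tested.

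Striatal medium spiny neurons lie below the cortex, and 16 of their marker genes were tested. All 16 had a negative difference of differences, with a median of -0.42, and 7 had an unadjusted p under 0.05, Ebf1 and Pde10a among them. At P5, 14 of the 16 were lower in every Chd8+/- library, as were 14.4% of all genes tested. Penk, which encodes enkephalin precursor, was at 1.54 to 2.41 CPM in Chd8+/+ and 1.30 to 4.54 CPM in Chd8+/- at E12.5, and at 45.3, 51.1 and 47.0 CPM against 30.3, 39.1 and 38.6 CPM at P5. Drd1, the dopamine D1 receptor, was below 0.50 CPM in every E12.5 library and at 27.2, 28.1 and 25.9 CPM in Chd8+/+ and 18.4, 22.8 and 21.0 CPM in Chd8+/- at P5. Adora2a, an adenosine receptor, had a difference of differences of -0.41 (standard error 0.129).
The summed level of the list was 523 to 535 CPM in Chd8+/+ and 483 to 582 CPM in Chd8+/- at E12.5, and 960 to 1013 CPM and 700 to 857 CPM at P5. Chd8+/- replicate 1 of P5 was the lowest for Ebf1, Pde10a, Penk and Drd1. Leaving out each library in turn left 4 to 8 genes with an unadjusted p under 0.05, with 4 without Chd8+/+ replicate 1 or replicate 3 of E12.5 or Chd8+/+ replicate 2 of P5, and the count was 4 with scaling to the total count. The part of striatal tissue in these values was not tested.

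Of 15 genes tested for GABA-A receptors and chloride cotransporters, 14 had a negative value and 8 an unadjusted p under 0.05 with a negative sign, against 1 positive, Gabrg3. GABA-A receptors are the chloride channels of fast inhibition. The median genotype difference was 0.18 at E12.5 and -0.10 at P5, and the median difference of differences was -0.35. The receptor genes rose steeply with age, so their E12.5 levels were low. Gabra5, the α5 subunit, was at 1.14, 1.31 and 1.48 CPM in Chd8+/+ and at 1.76, 1.77 and 1.70 CPM in Chd8+/- at E12.5. By P5 it was at 161, 174 and 167 CPM and at 158, 162 and 160 CPM. Its genotypes were apart at E12.5 and overlapped at P5 (-0.48, standard error 0.110, edgeR adjusted p = 0.362).
Gabrb2, the β2 subunit, had the opposite arrangement, with overlap at E12.5 and 81.3, 86.0 and 74.4 CPM in Chd8+/+ against 60.7, 63.8 and 69.2 CPM in Chd8+/- at P5 (-0.52, standard error 0.155). Gphn, which encodes the scaffold gephyrin, was at 42.2 to 43.6 CPM and 41.8 to 43.1 CPM at E12.5, and at 92.8 to 97.3 CPM and 83.6 to 87.0 CPM at P5 (-0.17, standard error 0.0544). Without Chd8+/- replicate 2 of E12.5, 6 genes had an unadjusted p under 0.05 with a negative sign and the median was -0.25. The median was -0.16 without Chd8+/- replicate 3 of E12.5.

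**Figure D4:**
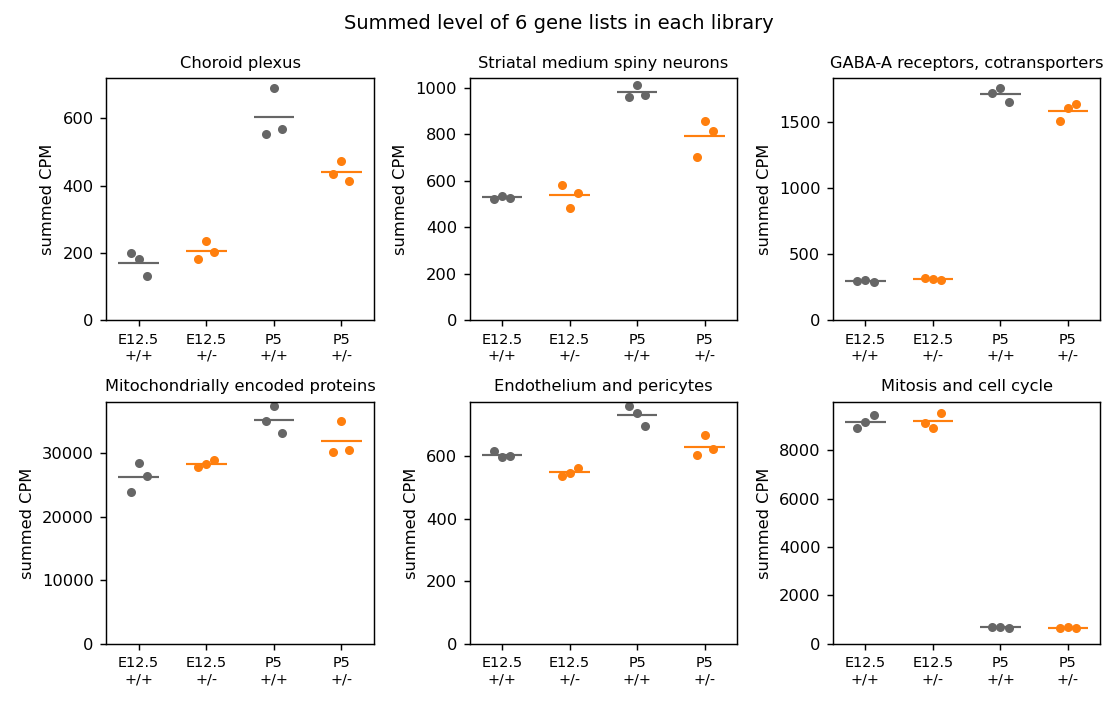
Summed CPM of 6 gene lists in each of the 3 libraries (points) of the 4 groups, with the group mean as a line, on axes that start at 0. For the choroid plexus, striatal, GABA-A and endothelial lists all Chd8+/- libraries lie below the Chd8+/+ libraries at P5, and for the mitochondrially encoded proteins and mitosis lists the genotypes overlap.

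Genes for adhesion and axon guidance were counted in 6 lists. Of 20 classical and type II cadherins tested, 18 had a negative value and 7 an unadjusted p under 0.05, all negative, with a median of -0.24. Cdh2, N-cadherin, which holds the progenitors of the ventricular zone together, was at 502 to 542 CPM in Chd8+/+ and 516 to 534 CPM in Chd8+/- at E12.5, and at 236, 245 and 230 CPM against 200, 212 and 207 CPM at P5 (-0.22, standard error 0.0670). Cdh8 overlapped at E12.5 and was at 116, 116 and 106 CPM in Chd8+/+ and at 82.1, 96.4 and 100.2 CPM in Chd8+/- at P5 (-0.51, standard error 0.153). Cdh15 and Cdh9 were apart at E12.5 instead, where they were below 1.0 CPM in every library, and overlapped at P5. Cdh3 and Cdh11, at 5.23 and 164 CPM, were high in Chd8+/- replicate 2 of E12.5, and 6 cadherins had an unadjusted p under 0.05 without that library.

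Of 12 non-clustered protocadherins, 11 had a negative value and 6 an unadjusted p under 0.05, with a median of -0.19, or -0.12 with the offsets for gene length. Pcdh9 was at 23.2 to 29.0 CPM and 28.2 to 30.4 CPM at E12.5, and at 127, 123 and 112 CPM in Chd8+/+ against 95.2, 102 and 105 CPM in Chd8+/- at P5 (-0.40, standard error 0.104, edgeR adjusted p = 0.362). This count was 1 without Chd8+/+ replicate 1 of E12.5, 2 without Chd8+/- replicate 1 of E12.5, Chd8+/- replicate 1 of P5 or Chd8+/+ replicate 2 of P5, 3 without Chd8+/- replicate 2 of E12.5 or Chd8+/+ replicate 1 of P5, and 2 with the offsets for gene length. Of 25 contactins and related immunoglobulin adhesion genes, 5 had an unadjusted p under 0.05, all negative, with a median of -0.12, or -0.04 with the offsets for gene length. Their count was 2 with the offsets, 2 without Chd8+/- replicate 1 of P5 and 9 without Chd8+/- replicate 2 of E12.5. Cntn1, contactin 1, rose by 6.13 in Chd8+/+ and by 5.80 in Chd8+/-.

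Among 20 genes of slits, netrins and their receptors, 5 had an unadjusted p under 0.05 with a negative sign and 1, Robo3, with a positive sign, and the median was -0.16. Dcc, the netrin receptor that guides commissural axons, was at 108, 123 and 121 CPM in Chd8+/+ and at 120, 120 and 102 CPM in Chd8+/- at E12.5. The P5 levels were 18.9, 19.5 and 16.6 CPM in Chd8+/+ and 11.5, 12.8 and 13.5 CPM in Chd8+/-. The genotypes overlapped at E12.5 and were apart at P5 (-0.50, standard error 0.117, edgeR adjusted p = 0.362). Robo1, a slit receptor, was at 151, 158 and 151 CPM against 118, 130 and 128 CPM at P5 (-0.38, standard error 0.0920), and Ntn1, which encodes the Dcc ligand netrin 1, had a value of -0.43 (standard error 0.138). Draxin, a netrin antagonist, was higher in every Chd8+/- library at both stages, at 81.5 to 96.0 CPM against 62.7 to 75.8 CPM at E12.5 and at 69.9 to 77.5 CPM against 65.2 to 69.3 CPM at P5. Of 31 semaphorins, plexins and neuropilins, 5 were negative and 2 positive at an unadjusted p under 0.05, with a median of -0.05, and of 22 ephrins and Eph receptors 1 was negative. The negative count of the slit and netrin list was 3 without Chd8+/- replicate 2 or Chd8+/+ replicate 2 of P5, and 3 with the offsets for gene length, where its median was -0.0751. With the offsets for gene length, the semaphorin list had 1 negative and 5 positive genes and a median of 0.03, and without Chd8+/- replicate 1 of E12.5 it had 3 and 5. Its negative count was 2 without Chd8+/+ replicate 1 of E12.5 or Chd8+/- replicate 1 of P5, and 7 without Chd8+/- replicate 2 of E12.5. The ephrin list had 3 negative genes without the latter.

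Progenitor and layer genes were counted next. Of 13 genes for intermediate progenitors and neurogenic factors, 3 had an unadjusted p under 0.05, namely Insm1, Btg2 and Neurog2, each higher in every Chd8+/- library at E12.5 and lower in every one at P5. Insm1, which promotes the delamination of basal progenitors, was at 69.8, 65.8 and 72.0 CPM against 75.9, 77.7 and 74.7 CPM at E12.5 and at 10.1, 11.8 and 10.8 CPM against 8.65, 9.70 and 8.77 CPM at P5 (-0.40, standard error 0.0923, edgeR adjusted p = 0.362). Neurog2, the proneural factor of cortical progenitors, was at 101 to 105 CPM and 109 to 117 CPM at E12.5 and at 1.53 to 1.61 CPM and 0.732 to 1.41 CPM at P5. Pax6, which specifies cortical progenitors, had a value of -0.31 (standard error 0.0792), with overlap at E12.5 and 13.2 to 14.1 CPM against 10.6 to 12.3 CPM at P5. Of 23 radial glia genes 3 were negative and 1, Hes5, positive at an unadjusted p under 0.05, and of 40 mitosis genes 4 were negative, led by the kinetochore motor Cenpe (-0.30, standard error 0.0643), and 2 positive. Without Chd8+/- replicate 2 of P5 the negative counts were 5 for intermediate progenitors, 5 for radial glia and 11 for mitosis genes, and the last was 2 without Chd8+/+ replicate 1 or Chd8+/- replicate 3 of E12.5. With the offsets for gene length 1 mitosis gene was negative and 2 were positive. The count for intermediate progenitors was also 5 without Chd8+/- replicate 2 of E12.5.

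Of 13 deep-layer transcription factors, 4 had an unadjusted p under 0.05, all negative, namely Foxp2, Tle4, Lmo3 and Zfpm2, and 6 were negative without Chd8+/- replicate 2 of E12.5. There were 2 negative without Chd8+/+ replicate 1 of E12.5, 2 negative and 2 positive without Chd8+/- replicate 1 of E12.5, and 2 negative with the offsets for gene length, where the median went from -0.14 to -0.07. Foxp2, which deep-layer and striatal neurons both express, was at 51.7, 52.3 and 52.6 CPM in Chd8+/+ and at 54.1, 61.5 and 53.0 CPM in Chd8+/- at E12.5, and at 39.5, 39.3 and 37.5 CPM against 22.3, 32.1 and 31.0 CPM at P5 (-0.55, standard error 0.146). Of 12 upper-layer factors, 1 had an unadjusted p under 0.05. This was Cux2, at 43.56 to 50.04 CPM in Chd8+/+ and 35.2 to 40.9 CPM in Chd8+/- at E12.5 and with overlap at P5 (0.35, standard error 0.101, edgeR adjusted p = 0.362). Among 38 vesicle genes 3 were negative and 3 positive, and 1 to 6 were negative with a library left out, the most without Chd8+/- replicate 2 of E12.5. The list had 1 negative and 9 positive genes without Chd8+/- replicate 1 of E12.5, and 2 and 6 with the offsets for gene length. Among 43 glutamate receptor and scaffold genes 5 were negative and 1 positive, against 9 and 1 without that library, 3 and 9 without Chd8+/- replicate 1 of E12.5, 2 and 2 without Chd8+/+ replicate 3 of E12.5, and 1 and 6 with the offsets for gene length. The negative count of the latter list was 3 without Chd8+/+ replicate 1 of E12.5, Chd8+/- replicate 1 of P5 or Chd8+/+ replicate 2 of P5. Stx1a, a syntaxin of vesicle fusion, had a value of 0.32 (standard error 0.0904), and Syt4, a synaptotagmin, of -0.35.

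Mitochondrial genes were split by genome. Of 13 mitochondrially encoded protein genes, 12 had a negative value and 7 an unadjusted p under 0.05, with a median of -0.26, or -0.17 without Chd8+/+ replicate 1 of E12.5. mt-Nd5, a subunit of respiratory complex I, was at 2451, 2786 and 2590 CPM in Chd8+/+ and at 2623, 2945 and 2828 CPM in Chd8+/- of E12.5, and at 3550, 3674 and 3178 CPM against 2559, 3248 and 2743 CPM at P5. The genotypes overlapped at both stages (-0.38, standard error 0.121, edgeR adjusted p = 0.375). The 92 nuclear genes of oxidative phosphorylation had a median of 0.06, with 70 positive values and 1 negative and 2 positive at an unadjusted p under 0.05. The 84 cytosolic ribosomal protein genes had a median of 0.07, with 67 positive values and 0 at an unadjusted p under 0.05. Without Chd8+/+ replicate 1 of E12.5 the positive counts were 21 for nuclear oxidative phosphorylation and 11 for ribosomal proteins, and without Chd8+/- replicate 2 of P5 they were 19 and 12. The former was 8 with scaling to the total count. Without Chd8+/- replicate 1 of P5 the median of the ribosomal list was 0.0035, with 40 negative values, and that of nuclear oxidative phosphorylation was 0.02, with 37 negative values. The mitochondrial count was 2 without each of 6 libraries in turn, namely replicate 1 of Chd8+/+ and replicates 1 and 3 of Chd8+/- at E12.5, and replicates 1 and 3 of Chd8+/- and replicate 2 of Chd8+/+ at P5. It was 9 without Chd8+/+ replicate 2 of E12.5 or Chd8+/- replicate 2 of P5. Among mitochondrial genes, mt-Co2 and mt-Co3 were below 1.1 CPM in every library, and near-identical nuclear copies make their values uncertain.

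Markers of other cells that the dissection can hold were also counted. Of 20 endothelial and pericyte genes, 5 had an unadjusted p under 0.05, all negative, with a median of -0.12. Their summed level was 598 to 617 CPM in Chd8+/+ and 537 to 564 CPM in Chd8+/- at E12.5 and 697 to 763 CPM and 604 to 669 CPM at P5, apart at both stages. The count of 5 was 0 without Chd8+/+ replicate 3 or Chd8+/- replicate 3 of E12.5, 1 to 3 without each of 7 other libraries, 8 without Chd8+/- replicate 2 of P5 and 1 with the offsets for gene length. Their median was -0.06 without Chd8+/- replicate 1 of P5. Flt1, a receptor of vascular endothelial growth factor, was at 35.4, 33.6 and 30.4 CPM against 21.6, 28.8 and 22.4 CPM at P5 (-0.31, standard error 0.139). Of 16 microglial, 17 meningeal and 17 astrocyte genes, 0 were negative at an unadjusted p under 0.05, and 0, 1 and 1 were positive. Of 20 GABAergic interneuron genes, 2 were negative, Prox1 and Erbb4, against 1 without Chd8+/+ replicate 1 of E12.5 and 1 with the offsets for gene length. Of 16 oligodendrocyte genes, 2 were negative, and 1 of these is Nkx2-2, whose fitted value rests on Chd8+/- replicate 2 of E12.5 and changes sign without it. Of 14 erythrocyte genes, 2 were negative and 1, Hba-a2, positive, with near-identical globin copies. Without Chd8+/- replicate 2 of E12.5 the negative counts were 4 for interneurons, 2 for astrocytes and 1 each for upper-layer factors, microglia, meninges, oligodendrocytes and erythrocytes, and the median of the meningeal list was 0.09 instead of -0.04. Without Chd8+/- replicate 1 of E12.5 the meningeal median was -0.27, with 3 negative genes.

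Of the 9 CHD remodelers tested, Chd8 and Chd7 had an unadjusted p under 0.05. The count was 0 without Chd8+/- replicate 1 of P5, 1 with scaling to the total count, 1 without Chd8+/- replicate 2 of E12.5 and 3 without Chd8+/- replicate 2 of P5. Chd7, which interacts with CHD8, was at 202 to 249 CPM in Chd8+/+ and 226 to 255 CPM in Chd8+/- at E12.5 and at 25.4 to 27.4 CPM and 19.6 to 24.8 CPM at P5 (-0.32, standard error 0.120, edgeR adjusted p = 0.440). The median of the list was -0.10, and -0.02 with the offsets for gene length. Of 11 Polycomb repressive complex 2 genes, 1 was negative and 1, Phf1, positive.

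The difference of differences varied with the size of the stage change and with gene length. Its median was -0.08 for the 589 genes that fell by at least 3 on the log2 scale, 0.01 for the 2637 genes that rose by up to 0.5, and -0.07 for the 1665 genes that rose by more than 3. The last group also had the largest median standard error of these bins, 0.364. By length of the merged exons, the median ran from 0.04 in the shortest decile of genes (51 to 991 bases) to -0.07 in the longest (8273 to 116825 bases). In the shortest decile, 2.29% of genes were negative and 2.59% positive at an unadjusted p under 0.05, and in the longest 16.3% and 1.27%. The genotype difference at P5 ran from 0.03 to -0.07 over the same deciles, while that at E12.5 stayed between -0.01 and 0.01. The deviation of single libraries from their group mean also varied with length, with slopes from -0.07 in Chd8+/- replicate 1 of P5 to 0.07 in Chd8+/- replicate 2 of P5 (log2 units per 10-fold length). With offsets that remove each library's trend with length, the medians of the deciles lay between 0.00 and 0.04. The offsets remove a genotype difference that follows length as well, so such a difference and a library trend cannot be told apart.

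**Figure D5:**
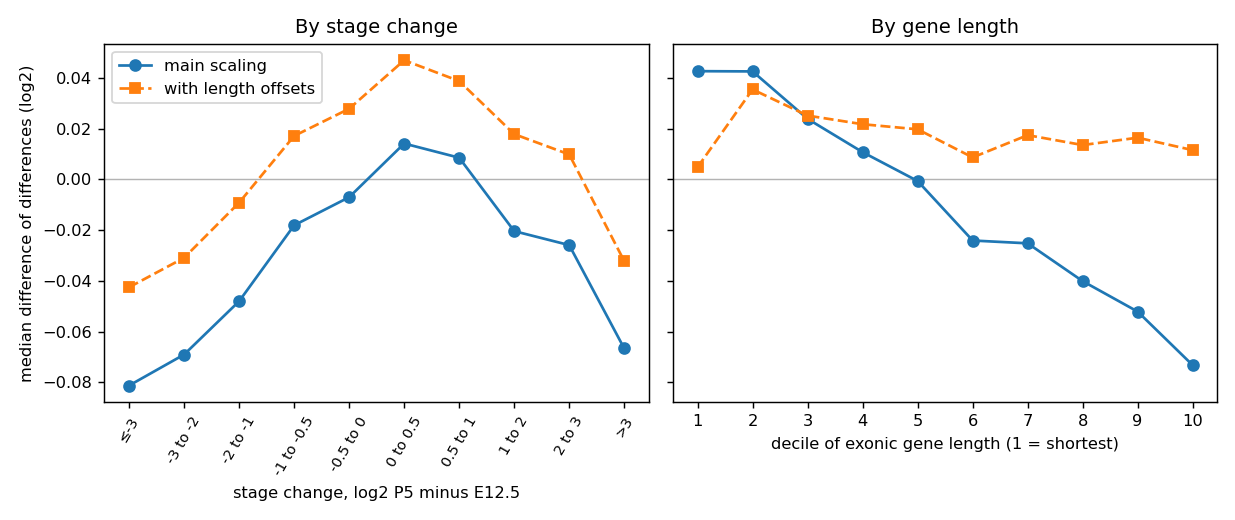
Median difference of differences on the log2 scale by bins of the stage change (left) and by deciles of exonic gene length (right), with the main TMM scaling (circles, full line) and with offsets for gene length (squares, dashed line). With the main scaling the median falls from 0.04 in the shortest decile to -0.07 in the longest. The offsets take out the trend with length by design, and with them the genes with large stage changes keep the lowest medians.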

How the data were processed

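RNA was sequenced as paired ends from 12 libraries in 4 groups of 3. The authors trimmed reads with Trim Galore 0.4.1, aligned them to GRCm38 with TopHat2 2.1.0 and counted them with featureCounts 1.5.0 on Ensembl genes, and they deposited raw counts per gene, separately for the 2 runs of a library. The recorded command of the P5 counts sets no strand, so overlapping and antisense genes cannot be told apart. For the E12.5 counts no command is recorded.

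Runs were summed and libraries grouped by genotype and age in the labels. All 12 libraries were fitted in 1 model with a mean per group in edgeR 4.0.16 (R 4.3.3), with TMM scaling, the default filter on low counts, and the quasi-likelihood test at an adjusted p under 0.05 (Benjamini-Hochberg). Standard errors and 95% intervals come from this test. Symbols were found for 46005 of 46603 genes. Depth was 38774591 to 54695236 counts per library, and p-values measure the spread between 3 libraries a group, which the labels do not name as separate animals. The script was tested on simulated counts with the same spread for all genes and no trends between libraries. That checks the code and does not measure the power in these data. The named genes are Chd8, all DESeq2 calls, the 4 genes with the smallest p in each class of stage change and sign, and in each list the gene with the smallest p and the one with the largest stage change, of at least 1 CPM in a group. Members, lists and tests were chosen with earlier results of these data known, and list members named beyond this rule were chosen after their values were seen.

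Alternatives were DESeq2 1.42.0, limma-voom (limma 3.58.1) with and without sample weights, robust moderation, other scalings and filters, length offsets (loess, span 0.5), X and Y left out, a threshold of 0.1, a block for the replicate number, and the fit without each library. A term for Xist and the DESeq2 settings were added after seeing the data. A correction for GC content was not run. Of the 8 genes called by DESeq2, 1 enters the counts but is not reported here.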

Additional observations from a re-analysis of the deposited data

Results flagged for a closer look

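By DESeq2's test of the interaction, the genotype difference of 8 genes was not the same at E12.5 and P5, and 7 of them are given here. The DESeq2 log2 difference of differences was -0.89 for Ebf1, -0.60 for Sema3c, -0.56 for Tenm2, -1.08 for Otx2, -0.62 for Pde10a, -0.34 for Dock11 and 0.38 for Rfng. In edgeR each had an adjusted p of 0.362. With a library left out in turn, the adjusted p of DESeq2 stayed under 0.05 in 11 of 12 cases for Ebf1, 9 for Sema3c, 8 for Tenm2, 7 for Otx2, Pde10a and Rfng, and 6 for Dock11. Without Chd8+/+ replicate 3 of E12.5, DESeq2 gave no adjusted p for Ebf1 and Otx2. With 3 libraries per group, Dixon's test for an outlying library was not applied to single genes.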

How the results depend on the processing

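With no filter on low counts edgeR called 17 genes for the difference of differences, and DESeq2 called 8. The other alternatives that kept all libraries gave 0 calls, and edgeR with each library left out gave 0 to 2. The number of genes with an unadjusted p under 0.05 stayed within 1.5 times of 1972 under every alternative, from 1320 to 2252 with a library left out. The share of these that were negative was 68.8% with DESeq2 size factors, 53.8% with scaling to the total count and 53.2% with upper quartile scaling. It was 44.2% with length offsets, which reverses the majority, and 50.7% to 68.2% with a library left out. DESeq2 called 4 genes with length normalization factors and 2 to 116 with a library left out. Calls for the stage change ranged from 17263 to 17473 with a library left out. The difference of differences of Chd8 ranged from -0.14 to -0.09 with a library left out and was -0.02 with length offsets, and it was not called under any alternative. Nkx2-2 had a value of -3.15, and from -3.77 to 0.60 with a library left out, the latter without Chd8+/- replicate 2 of E12.5, which holds most of its E12.5 counts. The other genes recomputed under the alternatives, which are those named for the smallest p or a DESeq2 call, kept their sign, and the remaining named genes were not recomputed.

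At a single stage, edgeR called 2 genes at E12.5 and 4 at P5. At E12.5 it called 1 with DESeq2 size factors, 68 with no filter, 5 with robust moderation and 1 to 7 with a library left out, while DESeq2 called 24, limma-voom 4 and limma-voom with sample weights 5. At P5 it called 2 with scaling to the total count, 294 with no filter and 1 to 161 with a library left out, while DESeq2 called 334 and limma-voom with sample weights 731. The term for Xist gave 1 call at each stage. Where a cause is not named, the cause was not tested.

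The replicate number as a block within each stage gave 0 calls and 1399 genes with an unadjusted p under 0.05 for the difference of differences, and 1 call at each stage. Same-numbered libraries had deviations correlated from -0.295 to -0.131 at E12.5 and from 0.0288 to 0.245 at P5, and not every library correlated best with its own number, so the numbers were not taken to pair samples. The median standard error was 0.13, and a gene needs a difference of differences of about 2.15 of its own standard errors for an unadjusted p under 0.05, and more after adjustment.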
